A study of Mus musculus with 55 samples.

Results

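The mitochondrial ribosomal proteins are the nuclear-encoded proteins that, with 2 ribosomal RNAs made inside the organelle (mt-Rnr1 and mt-Rnr2), form the ribosome of mitochondria. They were taken as all protein-coding mouse genes whose symbol begins with Mrpl or Mrps and a digit, which gave 77 of the 43432 genes in the count table. Of these, 48 are named for the large subunit and 29 for the small subunit. The symbols follow an older naming, and the proteins of Mrps18a and Mrps30 are known from mammalian structures to sit in the large subunit. Mrps36 is kept by its name, although its product is now known as a part of the alpha-ketoglutarate dehydrogenase complex.

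Messenger RNA was sequenced from gonadal white fat of C57BL/6 mice aged 6 months, in 55 libraries. The mice carried 1 knock-in Htt allele with a CAG repeat of 175, 140, 111, 92, 80 or 20 units, and were compared with wild-type (WT) littermates. Htt encodes huntingtin, and expanded repeats in it cause Huntington's disease. The 7 genotypes are called Q175, Q140, Q111, Q92, Q80, Q20 and WT, and Q20 has a repeat in the unexpanded range. Each genotype had 4 male and 4 female libraries, except for 3 female WT libraries. All knock-in animals were heterozygous, so each also kept a normal Htt copy. Q20 and WT animals shared housing while every other line lived with its own genotype, so housing and genotype cannot be told apart outside Q20 and WT. The submitters' library numbers place all Q175 and WT libraries after the other lines, apart from 1 Q20 library numbered later still. Differences between Q175 and the other knock-in lines, and those between Q20 and WT, therefore also follow that numbering. The slope over CAG length up to Q175 follows it too, while differences between Q175 and WT do not. The WT library names carry a Q20 code and the Q175 names a Q175 code, so WT littermates of every line are not shown. The labels do not say that libraries of a group came from separate animals, and p-values measure the spread between libraries.

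Mitochondrial ribosomes translate the few messages of the mitochondrial genome, all of which code for membrane subunits of the respiratory chain and ATP synthase. Their proteins are made in the cytosol and imported, and the ribosome is assembled on the organelle's own ribosomal RNAs with the help of methyltransferases, GTPases and helicases. Many of the proteins descend from bacterial ribosomal proteins and others exist only in mitochondria. White adipocytes hold fewer mitochondria than brown ones, and use them in fatty acid synthesis, lipolysis and hormone secretion.

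Libraries held 35094442 to 51363637 counts (median 42009365). Adipocyte markers were found in all libraries, with Adipoq, the adiponectin gene, between 453.7 and 5099 CPM (counts scaled to a common library size, by the trimmed mean of M values). Xist and Ddx3y contradicted the sex label in 2 Q140 libraries (female 1 and male 4). Epididymis markers stood at 100 CPM or more in 11 libraries, all male, which include the 4 Q175 males but no WT male. They summed to 14629, 25956 and 17145 CPM in Q92 male 1, Q140 male 1 and Q80 male 1. Adipocyte markers summed to only 2988, 4957 and 10998 CPM in these libraries. Skeletal muscle markers summed to 6355 CPM in Q92 female 1, 4336 CPM in Q92 male 1 and 3075 CPM in Q80 female 2. In bulk tissue, fewer cells of a type and less RNA per cell cannot be told apart.

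All 77 genes passed the low-count filter, which kept 21113 genes, and the lowest count of any of them in any library was 46. Per length, the median gene stood at 30.1 FPKM (fragments scaled for gene length and depth), with 30.2 for the large and 29.03 for the small subunit, and the mean levels spanned a 30.9-fold range. In the small subunit the highest were Mrps21 at 104.0 ± 16.3 FPKM and Mrps6 at 98.0 ± 25.4 FPKM, and the lowest Mrps27 at 11.9 ± 1.31 FPKM and Mrps31 at 13.9 ± 1.59 FPKM (SD, n = 55). In the large subunit the highest were Mrpl30 at 97.1 ± 14.5 FPKM and Mrpl20 at 91.4 ± 15.3 FPKM, and the lowest Mrpl23 at 3.37 ± 1.14 FPKM and Mrpl19 at 5.15 ± 0.99 FPKM. Mrps21 and Mrpl20 are relatives of the bacterial proteins of the same number, and Mrpl23 belongs to the rim of the tunnel through which the new peptide leaves. The gene models are short, between 412 and 3715 nt with a median of 1058 nt, against 2262 nt for all genes tested.

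Exons of 32 of the genes overlap another gene, a protein-coding one in 23 cases, in the GENCODE M21 annotation. Mrpl46 and Mrps11 overlap each other from opposite strands. The sources used here do not say whether counting used strand, so reads of such neighbours cannot be told apart. Estimated counts were whole in every library for 17 genes and fractional in over 90% of libraries for 15.

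Because the genes moved together in the comparisons below, their promoters are shown. RefSeq windows on GRCm38.p6, from 250 bases before to 50 after the start, were found for 68 of the 77 genes. Motifs of 3 factors known for nuclear genes of mitochondrial proteins were searched on both strands: GCGCANGCG, the core of the NRF1 site, CCGGAAG, the ETS site that GABPA binds, and AAGATGGCG, a YY1 site. Some genes have several starts, and each window was searched. The 4 windows below are from genes with a single start: the gene with the smallest p in Q175 against WT, and for each motif the gene with the smallest p that holds it. Mrpl48, with a smaller p than Mrpl51, has the ETS letters in 1 of its 4 windows and is not shown. They lie at chr19:4962056-4962355 (plus strand) for Mrpl11, chr6:125191950-125192249 (plus strand) for Mrpl51, chr3:94443086-94443385 (plus strand) for Mrpl9 and chr10:95501900-95502199 (minus strand) for Mrpl42. Capitals mark the motif, which is ETS in Mrpl51, NRF1 in Mrpl9 and YY1 in Mrpl42; Mrpl11 holds none of these letters.
Mrpl11: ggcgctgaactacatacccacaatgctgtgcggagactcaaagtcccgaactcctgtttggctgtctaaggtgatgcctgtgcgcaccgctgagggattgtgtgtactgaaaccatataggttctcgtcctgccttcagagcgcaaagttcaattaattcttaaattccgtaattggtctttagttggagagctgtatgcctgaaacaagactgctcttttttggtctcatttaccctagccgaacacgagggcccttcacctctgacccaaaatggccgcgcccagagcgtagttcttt
Mrpl51: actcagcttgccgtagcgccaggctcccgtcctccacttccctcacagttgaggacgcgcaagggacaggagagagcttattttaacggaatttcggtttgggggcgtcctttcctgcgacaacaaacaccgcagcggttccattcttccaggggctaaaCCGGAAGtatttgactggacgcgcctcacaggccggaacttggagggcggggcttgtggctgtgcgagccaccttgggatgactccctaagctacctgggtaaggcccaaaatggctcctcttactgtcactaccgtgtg
Mrpl9: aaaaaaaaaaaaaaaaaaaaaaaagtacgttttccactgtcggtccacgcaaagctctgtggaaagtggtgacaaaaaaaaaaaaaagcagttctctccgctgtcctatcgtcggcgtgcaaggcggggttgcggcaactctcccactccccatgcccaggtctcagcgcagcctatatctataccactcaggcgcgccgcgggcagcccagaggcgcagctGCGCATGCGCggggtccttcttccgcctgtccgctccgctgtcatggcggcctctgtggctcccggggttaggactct
Mrpl42: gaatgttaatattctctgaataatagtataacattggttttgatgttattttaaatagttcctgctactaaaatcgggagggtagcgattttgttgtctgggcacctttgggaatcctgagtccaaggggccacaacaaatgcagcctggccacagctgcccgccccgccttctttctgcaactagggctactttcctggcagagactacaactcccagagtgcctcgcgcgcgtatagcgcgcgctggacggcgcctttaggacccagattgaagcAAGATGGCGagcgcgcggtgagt
In Mrpl9 the NRF1 core is found on both strands, starting at bases 223 and 224 of the window, so that the matches overlap. The ETS match of Mrpl51 starts at base 161 and the YY1 match of Mrpl42 at base 278, after the start site.

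The NRF1 core was found in 16 of the 68 genes (23.5%), against 11.8% of the 14503 tested genes with a window and 7.03% of all 27025 genes with one. The ETS site was found in 25 of 68 (36.8%), against 15.6% of tested and 9.93% of all genes. The YY1 site was found in 8 of 68 (11.8%), against 2.67% of tested and 1.64% of all genes. At least 1 of the 3 was present in 41 of 68 genes (60.3%), against 26.4% of tested genes. In Q175 against WT, 35 of the 41 genes with a motif and 17 of the 27 without one were called lower, with medians of -0.39 and -0.37 on the log2 scale. Of all tested genes 7.10% were called lower there. In Q175 against Q20 the numbers were 39 of 41 and 24 of 27, with medians of -0.52 and -0.50, against 9.70% of all tested genes. These counts describe the letters in the windows and were not tested.

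Q175 against WT asks what the longest repeat goes with in libraries that were numbered together. In Q175 fat, 57 of the 77 genes fell and none rose, against 7.10% of all 21113 tested genes called lower and 3.34% called higher (edgeR quasi-likelihood test, Benjamini-Hochberg adjusted p under 0.05, called here). All 77 estimates were below 0, with a median log2 fold change of -0.38, against 0.01 for all tested genes. The median gene stood at 76.6% of its WT level, and the range over genes was 61.4% to 95.3%. The SD of the 77 log2 fold changes was 0.11, close to the median standard error of 0.11 for a single gene. The genes were measured in the same libraries and share part of their error, so this closeness does not show an equal fall. Both subunits took part, with 38 of 48 large-subunit genes (median -0.37) and 19 of 29 small-subunit genes (median -0.44) called lower. Relatives of bacterial proteins were called in 38 of 47 cases (median -0.43) and proteins found only in mitochondria in 19 of 29 (median -0.35). The difference between these classes was not tested.

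**Figure D1:**
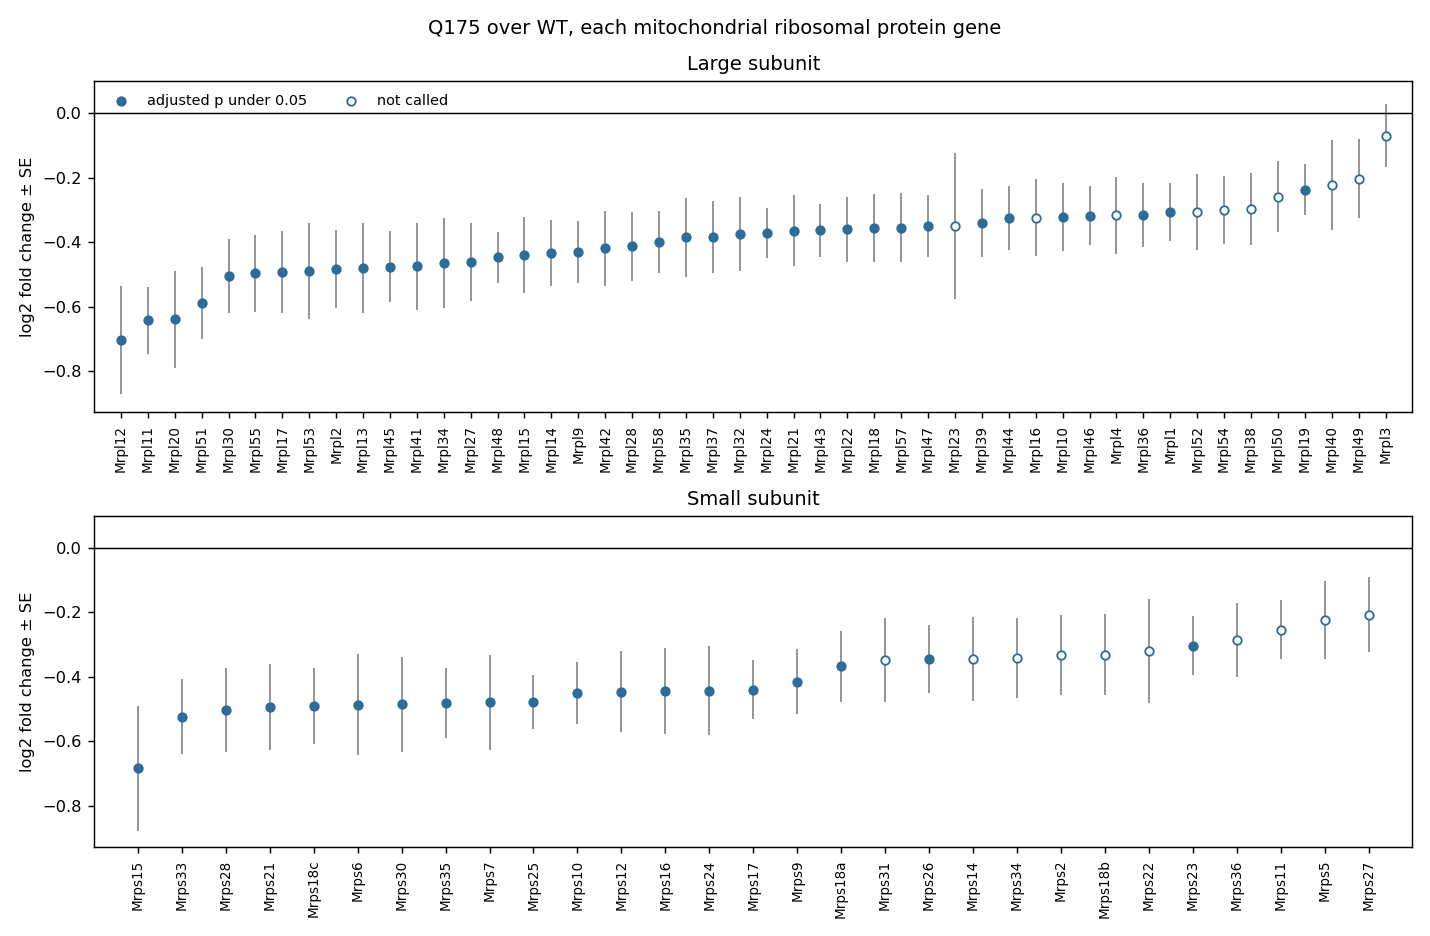
The log2 fold change of Q175 over WT is plotted for each gene, with bars of 1 standard error, in the large subunit (48 genes) and the small subunit (29 genes); filled points were called at an adjusted p under 0.05. Every point lies below 0, from Mrpl12 at -0.70 to Mrpl3 at -0.07.

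The summed level of the family was 2111 ± 180 CPM in Q175 and 2796 ± 231 CPM in WT (SD, n = 8 and 7). The Q175 libraries lay between 1842 and 2326 CPM with a median of 2191 CPM, against 2463 to 3165 CPM with a median of 2853 CPM in WT, so the groups did not overlap. The large subunit summed to 1329 ± 108 CPM in Q175 and 1758 ± 140 CPM in WT, and the small subunit to 782.8 ± 72.7 CPM in Q175 and 1038 ± 91.3 CPM in WT. The ratio of the large to the small sum was 1.70 ± 0.027 in Q175 and 1.69 ± 0.025 in WT. For 32 single genes (41.6%) every Q175 library lay below every WT library, against 2.84% of all tested genes, and for none did every Q175 library lie above.

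The stalk of the large subunit recruits the translation factors and is built on Mrpl10, Mrpl11 and Mrpl12; all 3 fell. Mrpl11 (ENSMUSG00000024902) had the smallest p of the family: its lowest, median and highest CPM were 27.0, 28.4 and 31.7 in Q175, against 34.6, 45.0 and 52.2 in WT. No Q175 library reached the lowest WT library, and the log2 fold change was -0.64 ± 0.10 (SE; edgeR adjusted p = 0.000412). Mrpl12, which also binds the mitochondrial RNA polymerase, had the largest difference of the 77. Its CPM were 39.5, 48.6 and 53.3 in Q175, against 58.3, 77.6 and 91.8 in WT, again without overlap, and the log2 fold change was -0.70 ± 0.17 (edgeR adjusted p = 0.00538). Mrpl10, the base of the stalk, had 42.7, 53.0 and 58.6 CPM in Q175 and 54.99, 62.2 and 70.5 CPM in WT, where the groups overlapped, and fell by 0.32 ± 0.11 on the log2 scale (edgeR adjusted p = 0.0434).

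Around the exit tunnel and the inner membrane, 7 of 8 genes fell, with a median of -0.36; the eighth was the low Mrpl23 (-0.35, edgeR adjusted p = 0.353). Mrpl24, a tunnel-side relative of a bacterial protein, had 48.1, 54.5 and 57.6 CPM in Q175 and 61.3, 67.6 and 78.0 CPM in WT, with no overlap (-0.37 ± 0.08, edgeR adjusted p = 0.00205). Mrpl45, which ties the ribosome to the inner membrane, fell by 0.48 on the log2 scale. Mrpl17 fell by 0.49, Mrpl39 by 0.34 and Mrpl44 by 0.32.

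Among the large-subunit proteins found only in mitochondria, Mrpl51 had 51.6, 54.97 and 63.1 CPM in Q175 and 76.0, 84.4 and 96.3 CPM in WT (-0.59 ± 0.11, edgeR adjusted p = 0.00101). Mrpl48 had 29.4, 33.8 and 36.8 CPM in Q175 and 38.4, 44.4 and 52.5 CPM in WT (-0.45 ± 0.08, edgeR adjusted p = 0.000677). In both genes all Q175 libraries lay below all WT libraries. Mrpl58, a peptidyl-tRNA hydrolase built into the large subunit, fell by 0.40.

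In the small subunit Mrps25, found only in mitochondria, had 38.5, 41.4 and 47.2 CPM in Q175 and 50.8, 58.0 and 70.8 CPM in WT (-0.48 ± 0.08, edgeR adjusted p = 0.000569). Mrps17, a relative of a bacterial protein, had 28.4, 32.5 and 35.7 CPM in Q175 and 36.8, 44.4 and 46.5 CPM in WT (-0.44 ± 0.09, edgeR adjusted p = 0.00197). Neither gene's groups overlapped. Mrps12, whose bacterial relative lines the decoding centre, fell by 0.45, and Mrps15 had the largest difference of the small subunit at -0.68 ± 0.19 (edgeR adjusted p = 0.0176). The exon overlap of Mrps25 with Nr2c2, of Mrpl48 with Rab6a and of Mrpl24 with Rrnad1 is on opposite strands. Rab6a rose by 0.21 and Rrnad1 fell by 0.30 in the same comparison, while Nr2c2 stood at 0.52 (edgeR adjusted p = 0.0551).

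The smallest differences were those of Mrpl3, Mrpl49 and Mrps27, none of which was called. Mrpl3, a relative of the bacterial protein near the peptidyl transferase centre, had 29.3, 36.4 and 38.8 CPM in Q175 and 27.7, 35.7 and 41.8 CPM in WT, so the Q175 libraries lay within the WT range (-0.07 ± 0.10, edgeR adjusted p = 0.727). Mrpl49 had 36.3, 43.7 and 48.1 CPM in Q175 and 42.2, 48.9 and 53.7 CPM in WT (-0.20 ± 0.12, edgeR adjusted p = 0.313). Mrps27, a pentatricopeptide-repeat protein of the small subunit, had 17.3, 20.0 and 22.4 CPM in Q175 and 18.1, 22.3 and 27.5 CPM in WT (-0.21 ± 0.12, edgeR adjusted p = 0.277). Both pairs of ranges overlapped.

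The most abundant genes per length were among those that fell. Mrps21 had 29.7, 38.3 and 42.8 CPM in Q175 and 43.1, 50.8 and 62.7 CPM in WT (-0.49 ± 0.13, edgeR adjusted p = 0.0133), and Mrpl20 had 42.7, 50.05 and 54.3 CPM in Q175 and 61.9, 75.6 and 85.0 CPM in WT (-0.64 ± 0.15, edgeR adjusted p = 0.005). Neither gene's groups overlapped. Mrps6 had 43.6, 55.3 and 86.2 CPM in Q175 and 55.8, 82.5 and 102.1 CPM in WT, which overlapped (-0.49 ± 0.16, edgeR adjusted p = 0.0378). Of the least abundant, Mrpl19 fell by 0.24, its highest Q175 library at 14.6 CPM standing just below its lowest WT library, while Mrps31 stood at -0.35 ± 0.13 (edgeR adjusted p = 0.0816).

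**Figure D2:**
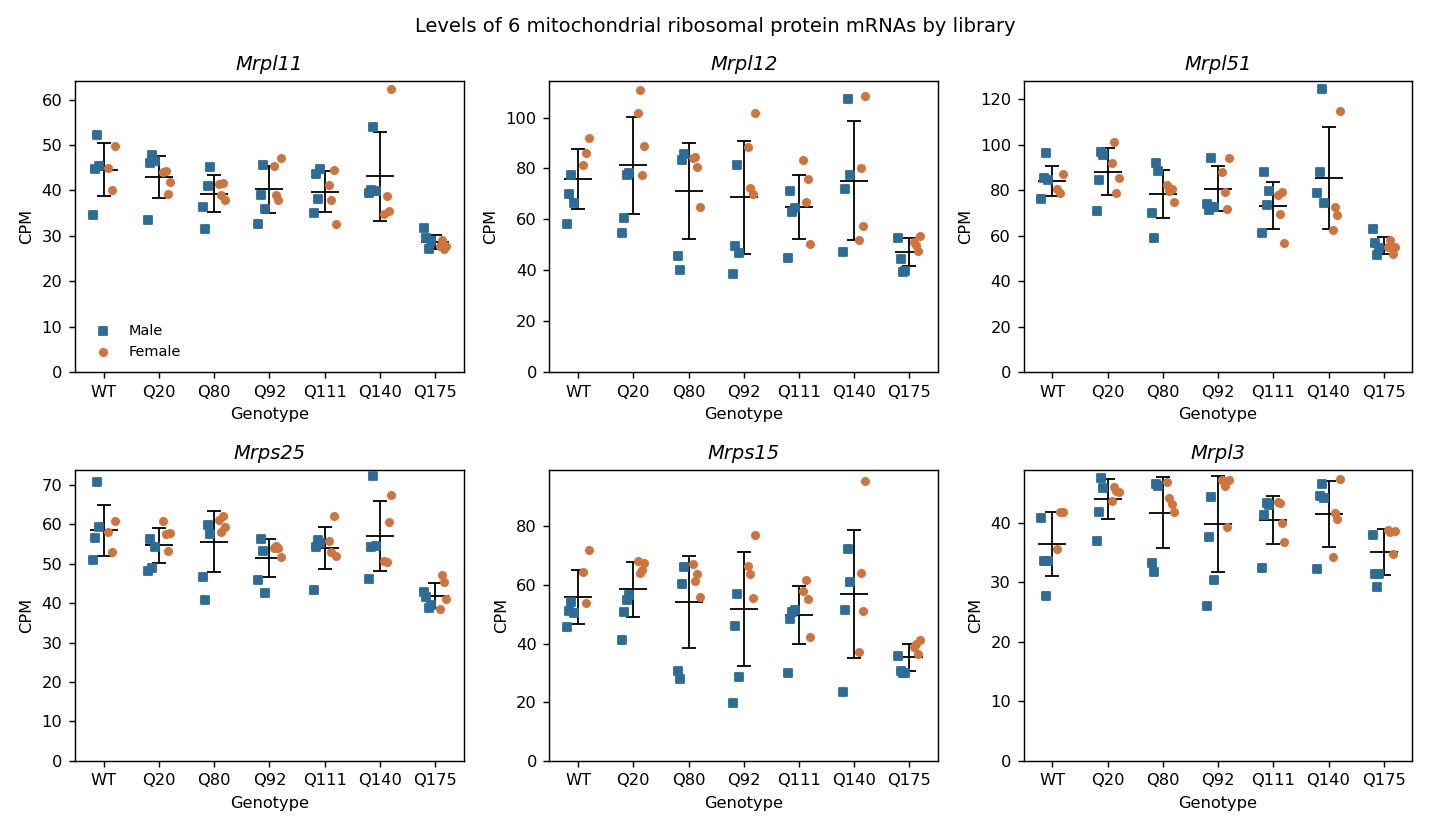
CPM of Mrpl11, Mrpl12, Mrpl51, Mrps25, Mrps15 and Mrpl3 in each library (squares male, circles female) by genotype, with the mean and SD over each genotype as black lines. Q175 has the lowest mean in all 6 genes, and in Mrpl3 the Q175 libraries (29.3 to 38.8 CPM) lie within the WT range (27.7 to 41.8 CPM).

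Within each sex the direction was the same for all 77 genes, with medians of -0.40 in males and -0.40 in females, but fewer genes passed. In males 8 fell (Mrps25, Mrpl45, Mrpl11, Mrpl48, Mrpl51, Mrps17, Mrps9 and Mrpl9), against 1.48% of tested genes called lower, and in females only Mrpl11 (-0.69 ± 0.15, edgeR adjusted p = 0.0411), against 0.0805%. The difference between the sexes was called for none of the 77, against 0.0284% of tested genes, and 40 estimates were below 0. No gene of the 77 had an unadjusted p under 0.05 for it by edgeR, and DESeq2 and voom called none. The summed level was 1983 ± 165 CPM in Q175 males and 2656 ± 169 CPM in WT males (n = 4 each), and 2240 ± 67.5 CPM in Q175 females and 2982 ± 160 CPM in WT females (n = 4 and 3).

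Several measures moved with Q175. The 6 adipocyte markers, none at 0 in any library, summed to 12435 to 20519 CPM in Q175 and 17833 to 26310 CPM in WT. The 6 macrophage markers summed to 926.4 to 1078 CPM in Q175 and 357.6 to 1107 CPM in WT, and the 5 progenitor markers to 491.6 to 706.6 CPM in Q175 and 269.8 to 556.2 CPM in WT, again with none at 0. Epididymis markers lay between 482.7 and 2842 CPM in Q175 males and between 0.44 and 1.37 CPM in WT males, with Gpx5, an epididymal peroxidase gene, at 0 in 43 of all 55 libraries. Q175 females had 0.10 to 4.61 CPM of them and WT females 0 to 0.022 CPM. An additive fit without the libraries at 100 CPM or more of these markers left only females in Q175. In that fit 42 of the 57 genes called lower in Q175 against WT were called again, and 15 were not. The share of all tested genes called in it is not given here, and the part of these 4 marker lists in the fall was not tested further.

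The slope of log2 CPM on log2 gene-model length was 0.093 ± 0.022 in Q175 and 0.010 ± 0.033 in WT (SD over libraries), so short messages were relatively lower in Q175. Within each class of length the family was called lower more often than the tested genes: in 25 of 32 genes of 500 to under 1000 nt (78.1%), against 15.4%, in 17 of 23 genes of 1000 to under 1500 nt (73.9%), against 12.4%, and in all 5 genes of at least 2500 nt, against 2.34%. Across the 77 genes the Spearman correlation of length and log2 fold change was 0.28, a description over genes measured in the same libraries. With each library's length trend removed the count was 21 of 77, the median -0.29 and all 77 estimates remained below 0.

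**Figure D3:**
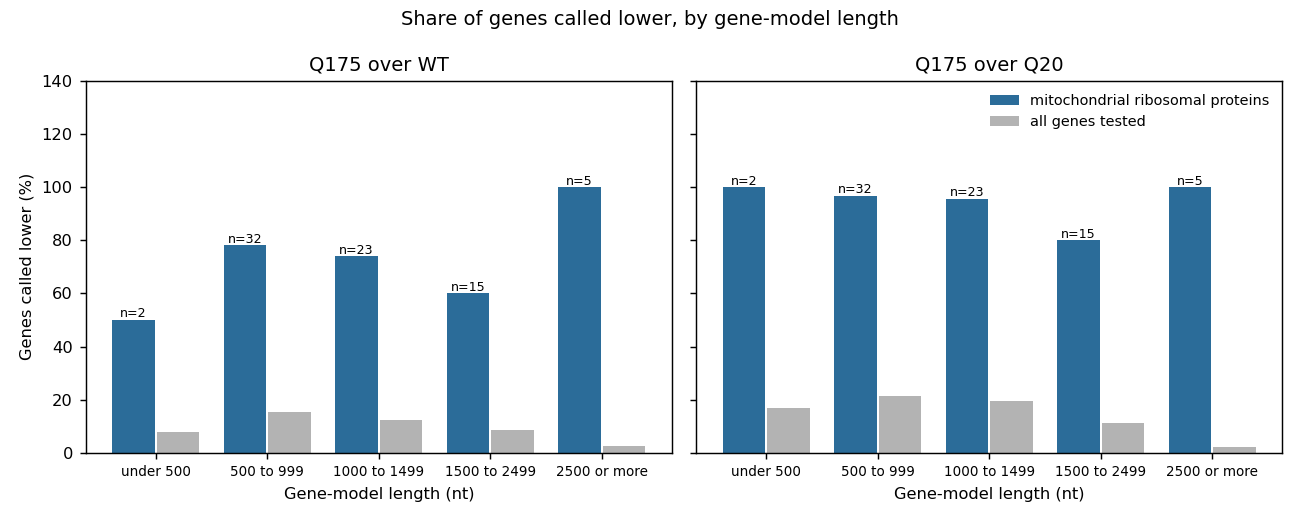
Percentage of genes called lower in Q175 over WT (left) and Q175 over Q20 (right), for the mitochondrial ribosomal proteins (blue, number of genes above each bar) and all genes tested (grey), by gene-model length in nt. The blue bar is the higher one in every class; the class under 500 nt holds 2 family genes.

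The count of 57 also depended on scale and on single libraries. On FPKM with 0.1 added it was 18, with a median of 0.17 over all tested genes and of -0.18 over the family, a gap of -0.35. A fit that also held the lane number in the library names gave 9, and one on all genes with no filter on low counts gave 30. The names of Q175 male 3 and Q20 male 4 share lane number and index, as do those of Q175 female 1 and Q20 female 2. A lane number may thus span more than 1 run. It was 36 without Q175 female 4, 29 without Q175 male 3, 33 without Q175 male 4, 30 without WT female 1 and 28 without WT female 3. In the 4 lanes that held both genotypes, the summed level was 2163 CPM in Q175 and 2853 CPM in WT (lane 5), 2326 CPM in Q175 and 2917 CPM in WT (lane 6), 1984 CPM in Q175 and 2463 CPM in WT (lane 7), and 2233 CPM in Q175 and 2584 CPM in WT (lane 8). In these lanes 75, 76, 76 and 62 of the 77 genes had the lower value or mean in Q175. Lanes 5 to 8 held 1, 1, 4 and 2 Q175 libraries and 1, 4, 1 and 1 WT libraries, so many of these values rest on 1 library. The sexes were not balanced, and lane 5 set a Q175 female beside a WT male.

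Q175 against Q20 sets the longest repeat beside the shortest, with the same Q175 libraries. Of the 77 genes, 72 fell and none rose, against 9.70% and 4.54% of tested genes, with a median of -0.51 against 0.01 for all tested genes. The median gene stood at 70.1% of its Q20 level. The 5 that were not called were Mrpl23, Mrpl9, Mrps27, Mrps31 and Mrps5. In 39 genes (50.6%) every Q175 library lay below every Q20 library, against 3.56% of tested genes.

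Structural RNAs moved with this comparison. Rn7s1, a gene for the RNA of the signal recognition particle, lay between 0.033 and 1.65 CPM in Q175 and between 22.1 and 1439 CPM in Q20; it lay between 0 and 3.41 CPM in WT and at 17.9 CPM or more in every library of the other lines. The mitochondrial ribosomal RNAs were lower in Q175 than in Q20, with log2 fold changes of -3.28 ± 0.54 for mt-Rnr1 and -3.39 ± 0.56 for mt-Rnr2 (edgeR adjusted p = 5.77e-05 and 6.11e-05), and higher in Q20 than in WT, with 2.43 ± 0.55 and 2.71 ± 0.58 (edgeR adjusted p = 0.0182 and 0.010). The library Q20 female 2 held 14975 CPM of mt-Rnr1, against a Q20 median of 626.1 CPM. Both RNAs were also called lower in the slope over CAG length given below. The part of these RNAs in the results of the family was not tested.

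The gene with the smallest p was Mrpl30, a relative of a bacterial large-subunit protein, with 42.1, 55.01 and 58.0 CPM in Q175 and 73.8, 87.0 and 95.2 CPM in Q20 (-0.71 ± 0.11, edgeR adjusted p = 2.86e-05). Mrpl54 and Mrpl46, both found only in mitochondria, followed the same direction. Mrpl54 had 17.5, 19.3 and 22.1 CPM in Q175 and 22.4, 27.5 and 40.5 CPM in Q20 (-0.59 ± 0.10, edgeR adjusted p = 0.000102). Mrpl46 had 11.1, 12.3 and 12.9 CPM in Q175 and 14.7, 17.4 and 19.1 CPM in Q20 (-0.51 ± 0.09, edgeR adjusted p = 0.000119). In all 3 genes the groups did not overlap. Mrpl51 fell by 0.66 with 70.7, 88.7 and 101.1 CPM in Q20, Mrpl11 by 0.59 with 33.6, 44.1 and 47.9 CPM in Q20, and Mrpl48 by 0.45 with 38.4, 46.6 and 48.8 CPM in Q20. These 6 had the smallest p-values. Mrpl3, with the smallest difference to WT, fell by 0.33 ± 0.09 against Q20 (edgeR adjusted p = 0.013). With the length trend removed 36 of the 77 were called, at a median of -0.32.

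The lines between Q20 and Q175 did not share these calls. None of the 77 was called when Q80, Q92, Q111 or Q140 was set against Q20, nor in Q20 against WT, where 0%, 6.11%, 0%, 0% and 0.753% of tested genes were called in either direction. At an unadjusted p under 0.05 edgeR gave 4 of 77 for Q80, 10 for Q92, 7 for Q111, 0 for Q140 and 9 for Q20 against WT. Over all 21113 tested genes the numbers were 1681, 3795, 1466, 2177 and 2150 in the same order. Voom with quality weights called 41 lower in Q92 and 1 lower in Q111, and 13 higher in Q20 against WT. DESeq2 called none in these comparisons. The shares above are those of edgeR, and the share of all tested genes called by voom is not given here. In Q92 the median was -0.16 with 75 of 77 estimates below 0, and 9 genes were called there without Q92 male 3. Without Q92 male 2 or without Q20 male 1 the Q92 count was 1. In Q140 the median was -0.04 and in Q20 against WT it was 0.10, with 65 estimates above 0.

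**Figure D4:**
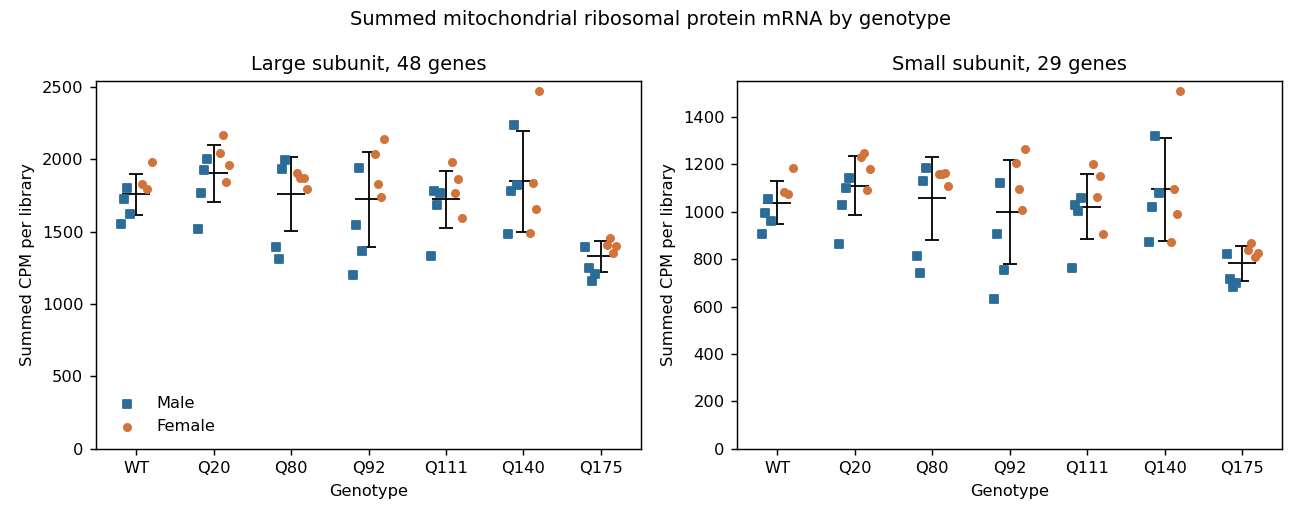
Summed CPM of the 48 large-subunit genes (left) and the 29 small-subunit genes (right) in each library (squares male, circles female) by genotype, with mean and SD as black lines. Q175 has the lowest mean in both panels (1329 and 782.8 CPM), and some male libraries of Q80, Q92 and Q111 lie within its range. In the small subunit Q20 male 1 (863.0 CPM) also lies within it, and Q92 male 1 (634.3 CPM) lies below it.

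By genotype, the summed level of the family was 2796 ± 231 CPM for WT and 3014 ± 319 CPM for Q20. It was 2816 ± 432 CPM for Q80, 2723 ± 548 CPM for Q92 and 2743 ± 331 CPM for Q111. Q140 stood at 2942 ± 567 CPM and Q175 at 2111 ± 180 CPM. All neighbouring steps in this order up to Q140 were within 1 SD of either group, and the step to Q175 was larger. The slope over CAG length from Q20 to Q175 was called lower for 62 genes and higher for none, against 5.66% and 2.65% of tested genes, with a median of -0.23 log2 units per 100 repeats. The smallest p-values were those of Mrpl30 (-0.36 ± 0.06, edgeR adjusted p = 0.000622) and Mrpl1 (-0.27 ± 0.05, edgeR adjusted p = 0.00135), both relatives of bacterial large-subunit proteins, and the steepest slope was that of Mrpl12 at -0.38 ± 0.10 (edgeR adjusted p = 0.010). The median level of Mrpl30 was 87.0 CPM for Q20, 81.3 CPM for Q80, 79.8 CPM for Q92, 73.7 CPM for Q111, 74.4 CPM for Q140 and 55.01 CPM for Q175. That of Mrpl1 was 25.2, 26.4, 26.0, 23.1, 23.7 and 17.997 CPM in the same order. In both genes the largest step between neighbouring medians was the one from Q140 to Q175. Mrpl51 (-0.33), Mrpl55 (-0.32), Mrpl46 (-0.25) and Mrpl11 (-0.28 per 100 repeats) were also called. Over Q20 to Q140 none was called, against 0.00474% of tested genes, with a median of -0.06. No gene of the family had an unadjusted p under 0.05 by edgeR, against 1606 of all 21113 tested genes, and DESeq2 and voom called none of the family. The slope count was 9 with the length trend removed, 27 on FPKM with 0.1 added, 37 without Q175 male 3 and 39 without Q20 female 2.

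Male against female, averaged over the 7 genotypes, was the other comparison in which the family was called. Of the 77 genes 47 were lower in males and none higher, against 18.3% and 27.9% of tested genes, with a median of -0.17 against 0.06 for all tested genes. By subunit 32 of 48 large-subunit genes (median -0.16) and 15 of 29 small-subunit genes (median -0.18) were lower in males. The 5 estimates above 0 were those of Mrpl54, Mrpl51, Mrps18a, Mrpl52 and Mrps26, none of them called. The SD of the log2 fold changes over genes, 0.11, was larger than the median standard error of 0.06.

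Mrps6, a small-subunit relative of a bacterial protein, stood apart. It had 43.6, 63.6 and 95.6 CPM as its lowest, median and highest values in males, against 55.8, 102.3 and 156.0 CPM in females (-0.63 ± 0.08, edgeR adjusted p = 7.89e-08). The male median lay near the low end of the female range. Its exons overlap those of Slc5a3, a sodium and myo-inositol transporter gene on the same strand, which was lower in males by 1.05 ± 0.10 (edgeR adjusted p = 3.21e-11), and their reads cannot be told apart. The next by p were Mrps23, with 25.4, 35.4 and 47.3 CPM in males and 32.1, 42.6 and 49.6 CPM in females (-0.27 ± 0.05, edgeR adjusted p = 1.35e-05), and Mrpl50, with 21.6, 39.2 and 52.1 CPM in males and 34.8, 46.2 and 65.5 CPM in females (-0.31 ± 0.06, edgeR adjusted p = 3.76e-05). In each the ranges of the sexes overlapped. Mrpl48 had 29.4, 38.9 and 49.2 CPM in males and 34.1, 46.6 and 60.9 CPM in females (-0.21 ± 0.04, edgeR adjusted p = 6.85e-05). Mrpl9, a relative of a bacterial large-subunit protein, had 30.5, 45.9 and 58.1 CPM in males and 35.2, 53.3 and 66.6 CPM in females (-0.25 ± 0.05, edgeR adjusted p = 8.3e-05). Mrpl18, known in human cells to help bring 5S rRNA into mitochondria, was lower by 0.27 ± 0.05 (edgeR adjusted p = 0.000124), and all 3 ranges overlapped. Of the stalk genes, Mrpl12 was lower in males by 0.30 ± 0.09 (edgeR adjusted p = 0.00463) and Mrpl10 by 0.15 ± 0.06 (edgeR adjusted p = 0.0199). Mrpl11 stood at -0.01 ± 0.05 (edgeR adjusted p = 0.972).

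**Figure D5:**
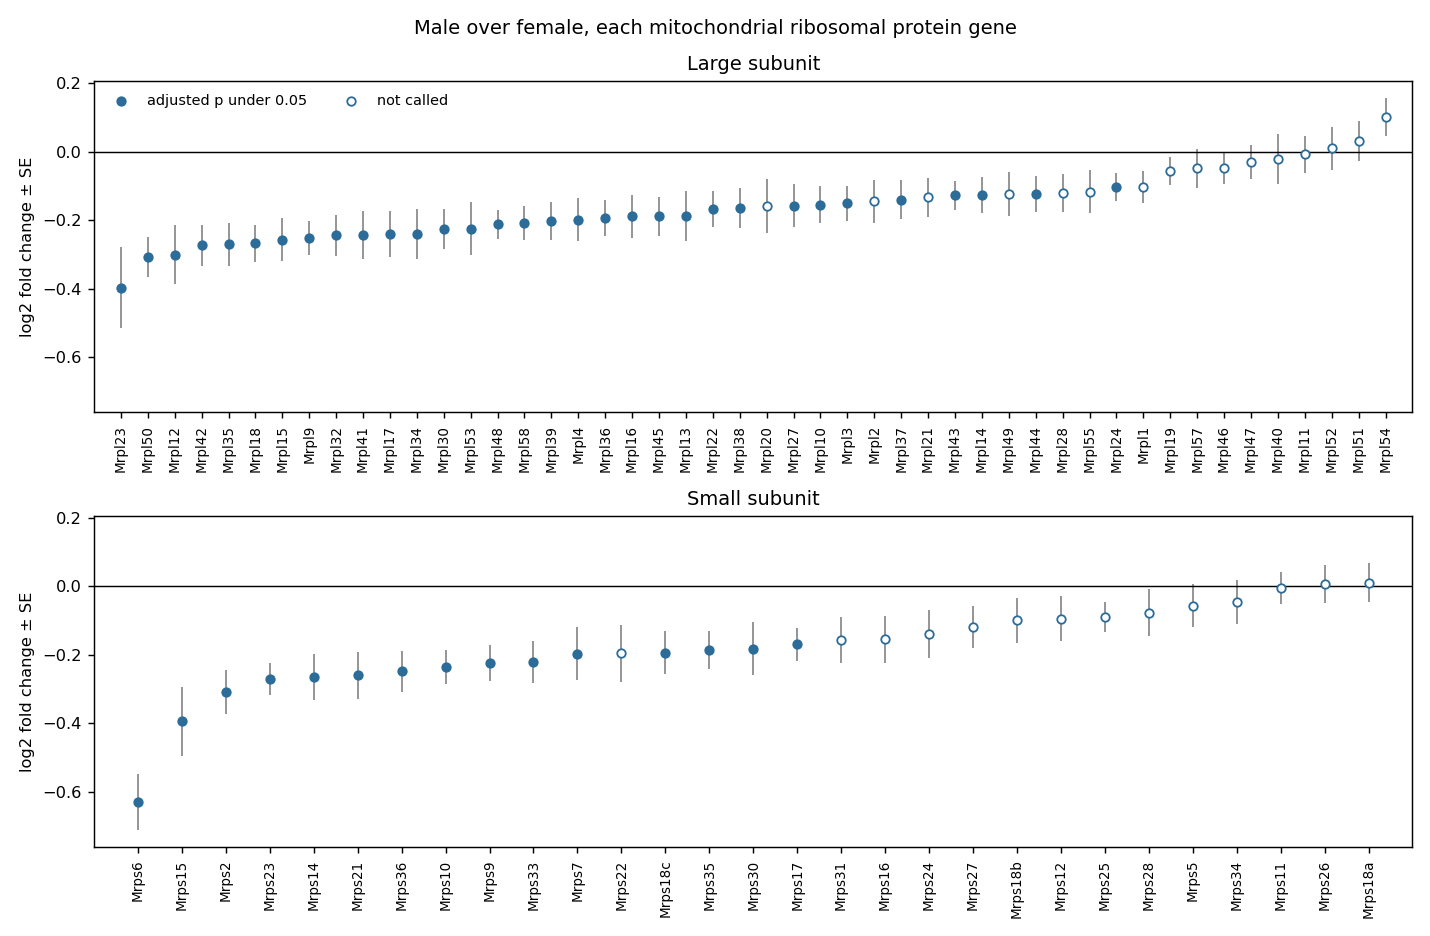
The log2 fold change of male over female is plotted for each gene, with bars of 1 standard error, by subunit; filled points were called at an adjusted p under 0.05. Mrps6 at -0.63 is the lowest point and 5 open points lie above 0.

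Epididymis markers moved with this difference. Outside Q175, the summed level of the family had a median of 2208 CPM in the 7 male libraries with at least 100 CPM of these markers, against 2814 CPM in the other 17 male libraries and 3013 CPM in the 23 female libraries. Without all 11 such libraries, in an additive design, 18 of 77 were lower in males and none higher, at a median of -0.06. In the main fit 18.3% of tested genes were called lower and 27.9% higher, and the shares under this setting are not given here. On FPKM with 0.1 added the split was 8 higher and 25 lower, where the median of all tested genes was 0.16 and that of the family -0.05. The large to small ratio of summed CPM was 1.73 ± 0.046 in males and 1.67 ± 0.035 in females (SD, n = 28 and 27).

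Other parts of the mitochondrial translation system were read beside the family in Q175 against WT, where 7.10% of all tested genes were called lower and 3.34% higher. Of 5 proteins of the ribosome with other names, 3 fell (median -0.36): Aurkaip1 by 0.57, Gadd45gip1 by 0.48 and Dap3, a GTPase of the small subunit, by 0.28. Of 22 assembly factors 8 fell and none rose (median -0.27), among them Ngrn, Dhx30, an RNA helicase, and Trmt61b, a methyltransferase, by 0.39, 0.40 and 0.42. Of 15 translation factors 4 fell and none rose (median -0.20), including the RNA-binding Slirp by 0.48, the insertase Oxa1l by 0.31 and the elongation factor Tsfm by 0.54. Of 20 mitochondrial tRNA synthetase and amidotransferase genes only Ears2 fell (median -0.14). Of 14 regulators of mitochondrial gene expression, Esrra and Gabpb1 fell by 0.43 and 0.23, while Gabpa, the ETS factor whose site is given above, rose by 0.27. The 1 call among the synthetases and the 1 rise among the regulators stood near the shares of all tested genes.

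Of the respiratory complex I subunits whose symbols begin with Nduf, which depend on mitochondrial translation for their membrane partners, 31 of 37 fell (median -0.54). Of 83 cytosolic ribosomal proteins, 17 fell (median -0.26), and of all tested genes 7.10% were called lower. The differences between these lists were not tested. The ribosomal RNAs had 192.3 ± 52.2 CPM (mt-Rnr1) and 243.3 ± 52.4 CPM (mt-Rnr2) in Q175, against 353.5 ± 153 and 413.1 ± 211 CPM in WT, and were not called (edgeR adjusted p = 0.313 and 0.459). The share of counts from mitochondrially encoded genes was 7.61 ± 1.07% for Q175 and 11.3 ± 2.23% for WT.

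Of the 77 genes, 18 start within 1000 bases of a protein-coding gene that runs the opposite way. In Q175 against WT, 10 of these 18 fell (median -0.35). Of their 18 neighbours 2 fell and none rose (median -0.08), where 7.10% of all tested genes were called lower and 3.34% higher. The neighbours that fell were Psma2, a proteasome subunit gene beside Mrpl32 (-0.33 ± 0.09, edgeR adjusted p = 0.0133), and Fau, a cytosolic ribosomal protein gene beside Mrpl49 (-0.46 ± 0.11, edgeR adjusted p = 0.0045). Mrpl32 fell by 0.38 and Mrpl49 was not called. Sars2, whose start lies 172 bases from that of Mrps12, stood at -0.27 ± 0.11 (edgeR adjusted p = 0.0993). Ncapd2 starts 100 bases from Mrpl51, within the Mrpl51 window printed above.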

How the data were processed

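Messenger RNA of gonadal white fat was measured in 55 libraries of 14 groups (genotype and sex). Per the labels, total RNA came from frozen tissue, was checked on a Bioanalyzer and had a subfraction collected for Illumina sequencing. CASAVA 1.8.2 is named in the submitters' processing notes. What aligned and counted the reads, and on which build, is not given in the sources used here. The authors deposited an estimated count per gene and library, unscaled; 33.7% of nonzero values were not whole, and all were rounded. The authors also deposited FPKM, scaled for length and depth; gene-model length was worked back from counts and FPKM. Depth bounds counting error only; no molecular identifiers are mentioned.

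Counts were fitted with edgeR 4.0.16 in R 4.3.3 (trimmed-mean scaling, filterByExpr, robust quasi-likelihood, 1 mean per group), and genotype comparisons average the sexes. A gene was called at an adjusted p under 0.05 over all 21113 genes. The code was tested on simulated data. Alternatives were other scalings and filters, DESeq2 1.42.0, limma 3.58.1 (voom weights; log2 FPKM with 0.1 or 1 added), lane or replicate number as a term, length trends removed, and libraries left out. Members and lists were chosen with earlier results of these data known. Full values are given for up to 6 called members per direction with the smallest p, the stalk genes, the levels at both ends and the 3 smallest differences. Symbols came from GENCODE M21 (42548 of 43432 identifiers) and promoters from RefSeq.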

Additional observations from a re-analysis of the deposited data

Results flagged for a closer look

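Within each genotype, 203 groups of values (26 genes, the 2 subunit sums and their ratio, in 7 genotypes) were searched for a library set apart from the rest by a gap that was large against the group's range. There were 11 such cases, and chance gives about 1 in 20 groups. Neither subunit sum nor their ratio was among them.

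Of the 11, 9 were low values of male libraries. Q20 male 1 had 51.1 CPM of Mrpl10 (others 64.2 to 73.0 CPM), 14.5 CPM of Mrpl19 (16.7 to 18.6 CPM) and 53.2 CPM of Mrpl20 (77.3 to 97.6 CPM). Q80 male 2 had 18.8 CPM of Mrpl1 (24.9 to 28.6 CPM) and 29.4 CPM of Mrpl18 (42.1 to 48.7 CPM). Both libraries had at least 100 CPM of epididymis markers. Q111 male 1, which did not, had 16.5 CPM of Mrpl1 (22.3 to 24.0 CPM) and 52.2 CPM of Mrpl30 (71.8 to 84.1 CPM). Q175 male 3 had 13.0 CPM of Mrpl55 (14.3 to 15.2 CPM). WT male 1 had 36.8 CPM of Mrps17 (42.4 to 46.5 CPM).

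High single libraries were Q140 female 4, with 64.5 CPM of Mrps17 (40.0 to 50.3 CPM), and Q111 female 1, with 18.5 CPM of Mrpl19 (14.8 to 16.3 CPM). No gene of the family was called for a difference between the sexes in its Q175 to WT contrast, where 0.0284% of all tested genes were called and the estimates of the family ran from -0.34 to 0.25; this does not show that the sexes were alike.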

How the results depend on the processing

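In Q175 against WT, Q175 against Q20, the slope over Q20 to Q175 and male against female, the family median stayed below 0 under every alternative run; the alternatives were not run within each sex. In Q175 against WT the count of called genes was 23 at an adjusted p of 0.01, 18 and 19 on FPKM with 0.1 or 1 added, 9 with lane, 21 with the length trend removed, 30 without the low-count filter and 28 to 58 with single libraries left out. In Q175 against Q20 it was 36 with the length trend removed and 66 to 74 with single libraries left out. The slope over Q20 to Q175 gave 31 at an adjusted p of 0.01, 27 on either FPKM scale, 9 with the length trend removed, 41 without the filter and 37 to 69 with single libraries left out. Of its 62 calls, 44 were kept without the 2 Q140 libraries whose sex genes contradicted their labels, and 47 with lane as a term. Male against female gave 18 without the libraries high in epididymis markers, an additive design, and 40 to 57 with single libraries left out. Where nothing was called, Q20 against WT gave 13 by voom with quality weights and 2 without the libraries high in epididymis markers; Q92 against Q20 gave 41 by voom, 1 with the length trend removed and 0 to 9 with single libraries left out; Q111 against Q20 gave 1 by voom. The cause of these changes was not tested, and the shares of all tested genes called under these alternatives are not given here. Among called genes, only Mrpl19, Q175 against WT, and Mrpl24, Male against female, turned their sign, on FPKM with 0.1 and 1 added: to 0.072 and 0.059 for Mrpl19 and to 0.0354 and 0.0348 for Mrpl24. The replicate numbers do not pair libraries: deviations of same-numbered libraries of different groups had a median correlation of 0.008, from -0.79 to 0.81. With the replicate block the counts were 57, 72, 63 and 52 in those 4 comparisons. Depth limits Mrpl23 most, with 98.5 counts per library on average. Leaving 1 library out of a group of 3 or 4 kept the spread pooled over all groups.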

Other observations

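Other lists of the mitochondrial translation system also held genes that were lower in males than in females; of all tested genes 18.3% were called lower in males and 27.9% higher. Of 15 translation factors 11 were lower in males and none higher (median -0.18), among them Mtrf1, a release factor homologue, by 0.26, the initiation factor Mtif2 by 0.16 and the translational activator Taco1 by 0.26. Of 22 assembly factors 10 were lower and none higher (median -0.11), with Mettl15, a ribosomal RNA methyltransferase, at -0.36, Mterf4 at -0.37 and the GTPase Noa1 at -0.27. Of 20 synthetase and amidotransferase genes 8 were lower (median -0.12), with Vars2 at -0.42 and Rars2 at -0.25. Of 14 regulators 6 were lower (median -0.10), with Tfb2m at -0.34 and Tefm at -0.29, both of mitochondrial transcription. Both mitochondrial ribosomal RNAs were lower in males, mt-Rnr1 by 0.76 ± 0.27 and mt-Rnr2 by 0.68 ± 0.28 (edgeR adjusted p = 0.0178 and 0.0403). Q20 female 2 alone held 14975 CPM of mt-Rnr1 and 21520 CPM of mt-Rnr2, while the other Q20 females held at most 600.8 and 732.9 CPM. The fit of these RNAs without that library is not given here. Of the 37 complex I subunits 31 were lower (median -0.24), while of the 83 cytosolic ribosomal proteins 10 were lower and 2 higher (median -0.05). Epididymis markers moved with this comparison too, and their part was not tested for these lists.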
